A study of Homo sapiens with 8 samples.

Results

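Interferon-stimulated and antigen-processing genes were followed in total RNA of the human leukaemia line K-562 with altered dosage of the silencing factors TASOR and TASOR2. The set holds 59 genes chosen by symbol, with earlier results of these data known. Of these, 18 were listed in at least 1 of 3 deposited gene tables. The 3 tables together list 1221 different genes. The altered groups were TASOR KO cells, TASOR KO cells expressing a FLAG-TASOR transgene, and wild-type cells expressing a FLAG-TASOR2 transgene. Each was set against wild-type cells that had received a negative sgRNA, with 2 libraries in each of the 4 groups. Per the labels' protocols, CRISPR/Cas9-treated cells were sorted as single colonies, and lentivirus then delivered an empty puromycin vector or the tagged transgene. The labels name no guide for the FLAG-TASOR2 cells and do not say which knockout or control cells carried the empty vector. Guide treatment and transgene can therefore not be told apart in that comparison. The sources used here do not say whether both libraries of a group derive from different clones. The p-values therefore rest on a spread between libraries that may be technical.

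TASOR belongs to the human silencing hub, or HUSH, which keeps LINE-1 retrotransposons silent, and TASOR2 is its paralog. Interferons are secreted antiviral cytokines. Type I interferon signals through a complex that contains STAT2 and IRF9 and binds a promoter sequence called the interferon-stimulated response element (ISRE), while interferon gamma acts through the gamma-activated site (GAS). Among the genes induced are sensors of foreign RNA and DNA, effectors that block virus replication, and the machinery that cuts proteins into peptides and carries them into the endoplasmic reticulum for display on class I molecules. The induced genes include the immunoproteasome subunits PSMB8 and PSMB9 and the peptide transporter subunits TAP1 and TAP2, which lie next to each other in the major histocompatibility region.

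The deposited tables give 1 log2 fold change, mean expression, F score, p-value and adjusted p per gene and comparison, and no value per library. Every gene in a table passed 3 thresholds, namely 0.05 for the unadjusted p, 1 for the size of the log2 fold change and 1 for log2 mean expression. A gene outside a table has no value here, which does not place it at the control level. A change was called only at an adjusted p below 0.05, and genes short of that are described as listed. Values after ± are approximate standard errors (SE) derived, like the 95% intervals, from the deposited F score. They do not allow for the selection of genes into the tables. Approximate group levels in CPM (read counts scaled to library size) were derived from the deposited mean expression and fold change. They are not corrected for gene length, so they compare groups for 1 gene and not genes with each other. The 3 comparisons share the control libraries, and the control levels derived separately from 2 tables differed by a median of 1.10-fold over the 100 genes listed for both the knockout and FLAG-TASOR2. In a bulk sample, fewer cells expressing a gene and less RNA per cell cannot be told apart.

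The targeted genes were listed in the direction of their labels where listed at all. TASOR stood at approximately 39.0 CPM in TASOR KO cells against 82.4 CPM in controls, or -1.08 ± 0.23 on the log2 scale of the authors' deposited table. TASOR2 stood at approximately 1070 CPM in FLAG-TASOR2 cells against 223 CPM in controls, or 2.26 ± 0.27 on the log2 scale of the authors' deposited table. Neither gene was listed for knockout cells expressing FLAG-TASOR.

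The members were listed mainly for FLAG-TASOR2, and mainly as lower. For FLAG-TASOR2, 14 of the 59 members were listed, 13 as lower (22.0% of the members) and DDX60 as higher. Over all 14001 genes tested, 3.76% were listed as lower and 2.56% as higher. Among the 884 listed genes, 59.5% were lower. The median log2 fold change of the 13 lower members was -1.94, against -1.85 for all 526 genes listed as lower. In TASOR KO cells 3 members were listed, all as lower (5.08% of the members). Of the 13992 genes tested there, 0.936% were listed as lower and 0.979% as higher. With FLAG-TASOR in the knockout, 2 were listed as lower and 1 as higher (3.39% and 1.69% of the members). Of at least 13957 genes tested there, at most 1.26% were listed as lower and 0.609% as higher. How many of the 59 members entered each test is unknown from the tables, so each share is a lower limit on the share of tested members. The members were chosen with earlier results of these data known. Their shares may reflect that choice, and no share was tested against that of all genes.

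No member passed an adjusted p of 0.05 in any comparison (0 of 59 each time, by the authors' deposited F-test). That threshold was passed by 0.0357% of the genes tested for FLAG-TASOR2, 0.00715% for the knockout and 0% for FLAG-TASOR. At an unadjusted p below 0.05 there were at least 14 members for FLAG-TASOR2 and at least 3 in each of the others, since every listed gene passed it. For FLAG-TASOR2 the adjusted p of the listed members ran between 0.0758 and 0.373 in the authors' deposited table. For the knockout it was 1.00, and with FLAG-TASOR 0.999, for every listed member in the authors' deposited tables.

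**Figure D1:**
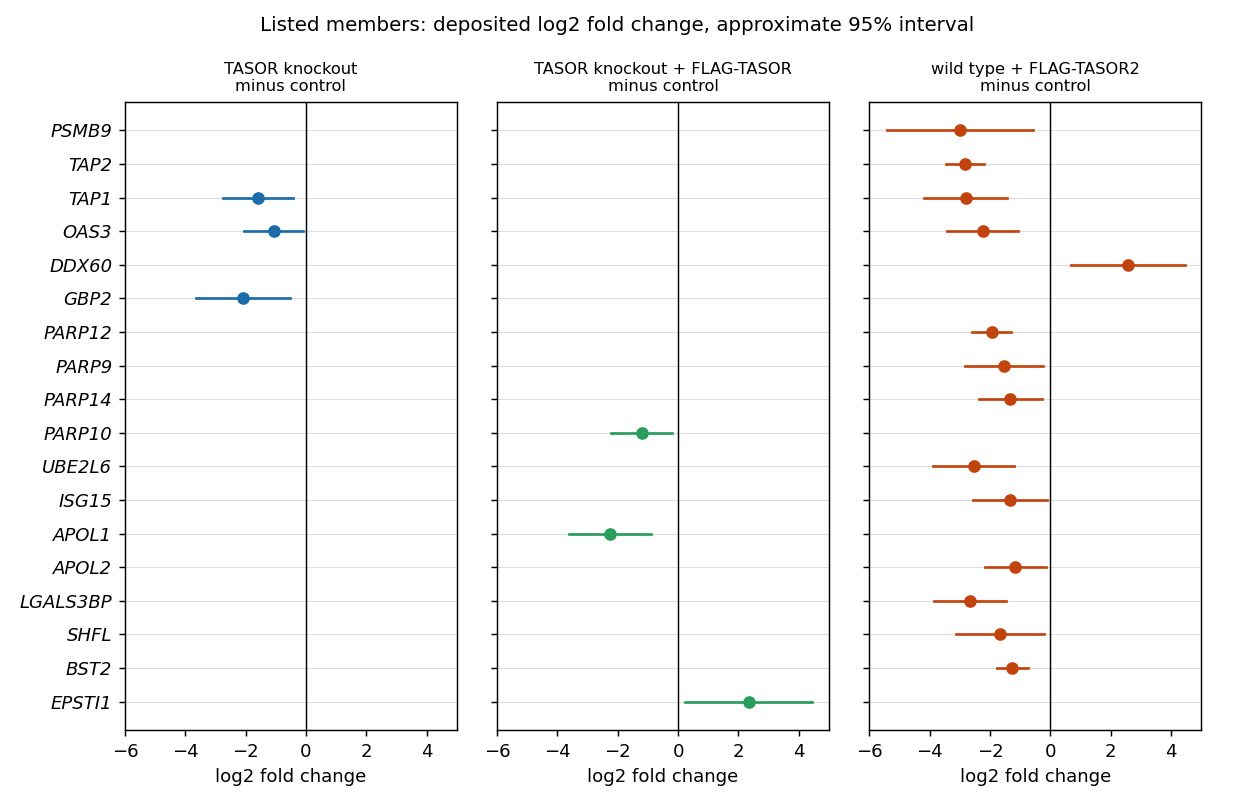
Deposited log2 fold changes (altered cells minus wild-type control) of the 18 listed members, 1 panel per comparison, with genes ordered by role. Points are the authors' values and bars the approximate 95% intervals; an empty row means that the gene was not listed. In the FLAG-TASOR2 panel 13 of 14 points lie left of zero.

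The promoters of the listed members are shown because most of those with a RefSeq window hold the letters of an interferon response element. The members are interferon-stimulated genes by choice, so these letters are not independent of how they were chosen. The RefSeq promoter table (GRCh38.p14) held windows running 250 bases before to 50 after a start for 45 of the 59 members and for 14 of the 18 listed ones. The ISRE was searched on both strands as GAAA and GAAA with any 2 bases between them, and the GAS as TTC and GAA with any 3 bases between them, which reads the same on both strands. The letters of the ISRE were found for 12 of these 14 listed members (85.7%), each time before the start. They were also found for 20 of the 31 members with a promoter that were listed nowhere (64.5%), and for 4.38% of all 27305 genes with a window. The GAS letters were found for 5 of the 14 listed members (35.7%), for 9 of the 31 others (29.0%) and for 9.38% of all genes. The ISRE letters were thus common to members inside and outside the tables. A match describes letters only and not a site in use.

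The 150 bases before the start are printed for 6 listed members with ISRE letters, taken by smallest deposited p with 1 gene per locus, 5′ to 3′ on the strand of the gene, with the ISRE letters in capitals. They lie at chr6:32838740-32838889 (minus strand) for TAP2, chr7:140062952-140063101 (minus) for PARP12, chr19:17405631-17405780 (minus) for BST2, chr17:78979924-78980073 (minus) for LGALS3BP, chr12:112938324-112938473 (plus) for OAS3 and chr4:168318753-168318902 (minus) for DDX60.
TAP2: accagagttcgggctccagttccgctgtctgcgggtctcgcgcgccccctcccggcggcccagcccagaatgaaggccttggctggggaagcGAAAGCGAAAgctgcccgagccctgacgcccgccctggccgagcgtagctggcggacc
PARP12: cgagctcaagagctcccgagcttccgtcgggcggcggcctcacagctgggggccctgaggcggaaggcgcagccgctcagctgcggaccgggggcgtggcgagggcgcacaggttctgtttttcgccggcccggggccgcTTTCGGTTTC
BST2: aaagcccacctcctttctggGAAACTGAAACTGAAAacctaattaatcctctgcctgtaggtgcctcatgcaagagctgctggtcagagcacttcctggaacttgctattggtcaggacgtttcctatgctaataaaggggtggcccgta
LGALS3BP: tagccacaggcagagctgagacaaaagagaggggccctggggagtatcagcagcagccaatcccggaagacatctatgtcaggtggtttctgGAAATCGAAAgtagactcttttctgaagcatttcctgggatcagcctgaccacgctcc
OAS3: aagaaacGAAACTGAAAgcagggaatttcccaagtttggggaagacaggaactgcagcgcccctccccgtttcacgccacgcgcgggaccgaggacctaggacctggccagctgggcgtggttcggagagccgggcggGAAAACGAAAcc
DDX60: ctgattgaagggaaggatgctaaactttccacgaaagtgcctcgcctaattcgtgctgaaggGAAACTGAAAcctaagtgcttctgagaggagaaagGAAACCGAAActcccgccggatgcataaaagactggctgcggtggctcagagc
TAP2 and LGALS3BP each hold 1 ISRE match, in both cases beginning 58 bases before the start. In PARP12 the match ends at the last base before the start and reads on the opposite strand. BST2 holds 2 matches that overlap, and OAS3 and DDX60 hold 2 separate ones. DDX60, the member listed as higher, carries the same letters as the printed members listed as lower. The printed promoters were picked for holding these letters, so this match was fixed by that choice. Of the 12 members listed as lower with FLAG-TASOR2 that have a RefSeq window, 10 held ISRE letters. GAS letters overlap the ISRE letters in BST2 and EPSTI1.

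**Figure D2:**
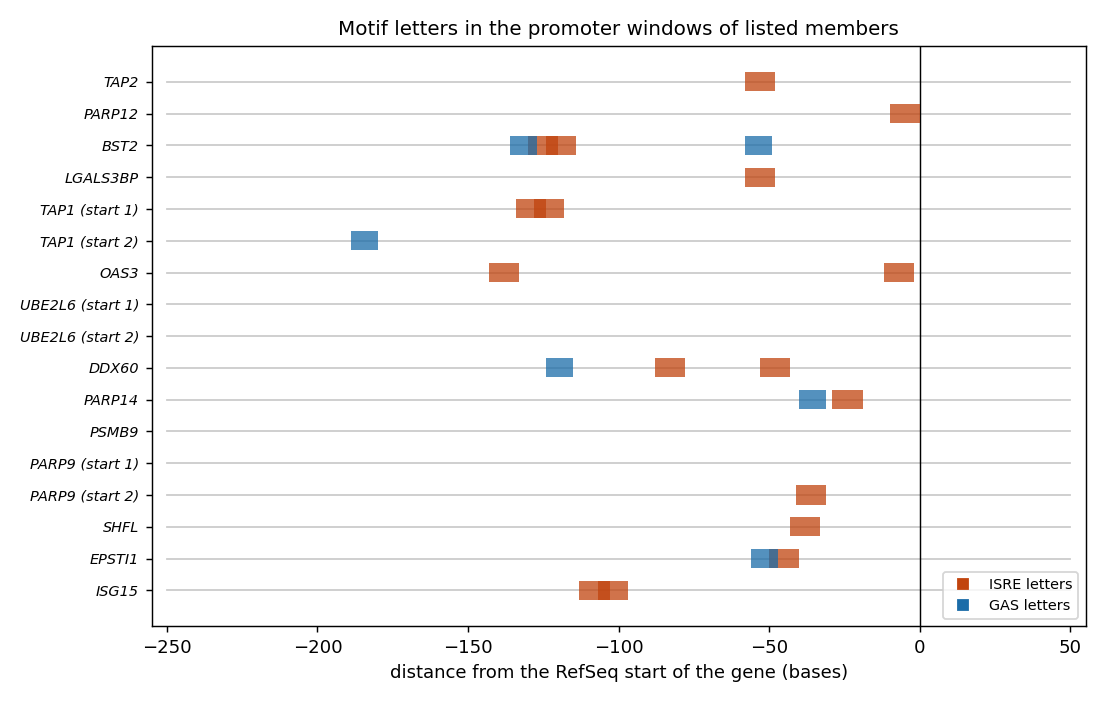
Positions of ISRE and GAS letters in the promoter windows of the 14 listed members with a RefSeq window, ordered by smallest deposited p from top to bottom; the horizontal axis is the distance in bases from the start of the gene, and darker stretches are overlapping matches. Windows of UBE2L6 and PSMB9 hold neither motif.

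Of the 4 antigen-processing genes, 3 were listed as lower with FLAG-TASOR2. TAP2, a subunit of the peptide transporter of class I presentation (chromosome 6, 32821833 to 32838780), stood at approximately 14.5 CPM in FLAG-TASOR2 cells against 102 CPM in controls. The authors' deposited table gave -2.82 ± 0.26 on the log2 scale, with an approximate 95% interval of -3.46 to -2.18 and an adjusted p of 0.0758. This was a 7.07-fold lower level and the smallest p of any member, seventh of the 884 listed genes. Of the 87 listed genes with a mean expression at least that of TAP2, 3 had a lower log2 fold change. TAP1, the other transporter subunit (chromosome 6, 32845209 to 32853978), stood at approximately 2.32 CPM in FLAG-TASOR2 cells against 16.2 CPM in controls. The authors' deposited table gave -2.81 ± 0.56 on the log2 scale, with an approximate 95% interval of -4.18 to -1.43 and an adjusted p of 0.192. Both subunits were thus listed at a similar fold change, with a wider interval for TAP1. If the deposited mean is a mean of log2 levels, TAP2 stands at 21.9 CPM in FLAG-TASOR2 cells against 155 CPM in controls, and TAP1 at 3.51 CPM in FLAG-TASOR2 cells against 24.5 CPM in controls.

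PSMB9, an immunoproteasome subunit (chromosome 6, 32844136 to 32859585), stood at approximately 0.997 CPM in FLAG-TASOR2 cells against 7.95 CPM in controls, or 1.58 CPM in FLAG-TASOR2 cells against 12.6 CPM in controls if the deposited mean is a mean of log2 levels. At -3.00 ± 0.99 (adjusted p 0.317) in the authors' deposited table, it had the lowest log2 fold change and the widest SE of the listed members. PSMB8, the other immunoproteasome member of the set, was not listed. In GENCODE 29, exons of PSMB9 overlap those of PSMB8 on the opposite strand, and exons of PSMB9 and TAP1 overlap the long non-coding gene PSMB8-AS1. Exons of TAP2 overlap those of a second annotated protein-coding gene on the same strand. The sources used here do not say whether counting was stranded, so reads of these genes may be shared. The 3 listed genes lie within 1 Mb and count as 1 locus.

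In TASOR KO cells, TAP1 was the only antigen-processing gene listed. Its level was approximately 6.60 CPM in TASOR KO cells against 19.9 CPM in controls, or -1.59 ± 0.46 on the log2 scale of the authors' deposited table, with an approximate 95% interval of -2.75 to -0.43. The knockout and FLAG-TASOR2 intervals for TAP1 overlap, and the difference between them was not tested because the tables hold no values per library. None of the 4 genes was listed for knockout cells expressing FLAG-TASOR.

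Of the 7 nucleic acid sensors, 2 were listed with FLAG-TASOR2, 1 lower and 1 higher. OAS3, an enzyme that makes oligoadenylates on binding double-stranded RNA (chromosome 12, 112938352 to 112973249), was listed as lower in both the knockout and FLAG-TASOR2. It stood at approximately 6.86 CPM in TASOR KO cells against 14.4 CPM in controls, or -1.07 ± 0.39 on the log2 scale of the authors' deposited table. The FLAG-TASOR2 table placed it at approximately 2.22 CPM in FLAG-TASOR2 cells against 10.4 CPM in the same controls, or -2.23 ± 0.48 on the log2 scale of the authors' deposited table (adjusted p 0.199). The 2 control levels come from separate tables and differed 1.38-fold, against a median of 1.10-fold and a 90th percentile of 1.29-fold over the 100 genes that both tables list. OAS1, OAS2 and OASL were not listed in any comparison.

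DDX60, a helicase that takes part in antiviral RNA sensing (chromosome 4, 168216293 to 168318807), was the single member listed as higher with FLAG-TASOR2. Its level was approximately 5.23 CPM in FLAG-TASOR2 cells against 0.883 CPM in controls. The authors' deposited table gave 2.57 ± 0.77 on the log2 scale, with an approximate 95% interval of 0.68 to 4.45 and an adjusted p of 0.282. The RNA sensor IFIH1 and the DNA sensor IFI16 were not listed.

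Poly(ADP-ribose) polymerases (PARPs) transfer ADP-ribose to proteins, and several are interferon-induced. Of the 5 genes grouped here, 3 were listed as lower with FLAG-TASOR2. PARP12, an antiviral family member (chromosome 7, 140023744 to 140063721), stood at approximately 14.5 CPM in FLAG-TASOR2 cells against 55.6 CPM in controls. The authors' deposited table gave -1.94 ± 0.26 on the log2 scale, with an approximate 95% interval of -2.58 to -1.30 and an adjusted p of 0.125. The other listed members lie together on chromosome 3 and had wider errors. PARP14 (chromosome 3, 122680618 to 122730840) had -1.32 ± 0.43, at approximately 13.8 CPM in FLAG-TASOR2 cells against 34.5 CPM in controls, in the authors' deposited table. PARP9 (chromosome 3, 122527924 to 122564577) had -1.54 ± 0.53, at approximately 2.76 CPM in FLAG-TASOR2 cells against 8.06 CPM in controls, in the authors' deposited table. PARP9 and PARP14 lie within 1 Mb of each other. DTX3L, the ubiquitin ligase partner of PARP9 that is transcribed from the opposite strand beside it, was not listed, and its exons overlap those of PARP9.

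PARP10 (chromosome 8, 143977153 to 144012772) was listed only with FLAG-TASOR in the knockout. The level was approximately 4.56 CPM in those cells against 10.5 CPM in controls, or -1.21 ± 0.40 on the log2 scale of the authors' deposited table, with an approximate 95% interval of -2.21 to -0.20. Its exons overlap those of GRINA and SPATC1 on the opposite strand. Since PARP10 has no value in the other 2 tables, its listing there cannot be compared.

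ISG15 is a ubiquitin-like protein that is attached to other proteins, and UBE2L6 is the conjugating enzyme of that pathway. UBE2L6 (chromosome 11, 57551656 to 57568284) stood at approximately 2.15 CPM in FLAG-TASOR2 cells against 12.4 CPM in controls. The authors' deposited table gave -2.53 ± 0.55 on the log2 scale, with an approximate 95% interval of -3.88 to -1.18 and an adjusted p of 0.199. ISG15 itself (chromosome 1, 1001138 to 1014540) stood at approximately 3.14 CPM in FLAG-TASOR2 cells against 7.93 CPM in controls. On the log2 scale this was -1.34 ± 0.50 (adjusted p 0.373), with the largest p of the 14 members listed for FLAG-TASOR2, in the authors' deposited table. The ISG15 ligase HERC5, its relative HERC6 and the protease USP18, which removes ISG15, were not listed.

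Of the 18 members grouped here as other effectors, 3 were listed with FLAG-TASOR2, all as lower. BST2, which tethers budding virus particles to the cell (chromosome 19, 17402939 to 17405648), stood at approximately 41.7 CPM in FLAG-TASOR2 cells against 99.7 CPM in controls. The authors' deposited table gave -1.26 ± 0.21 on the log2 scale, with an approximate 95% interval of -1.76 to -0.75 and an adjusted p of 0.142, with the smallest SE of the listed members. The other effectors listed had larger errors. LGALS3BP, a secreted glycoprotein that binds galectin-3 (chromosome 17, 78971238 to 78980109), stood at approximately 1.63 CPM in FLAG-TASOR2 cells against 10.3 CPM in controls. On the log2 scale this was -2.66 ± 0.49 (adjusted p 0.176) in the authors' deposited table. SHFL, which blocks programmed ribosomal frameshifting of viruses (chromosome 19, 10086122 to 10093252), had -1.67 ± 0.59, at approximately 1.89 CPM in FLAG-TASOR2 cells against 6.02 CPM in controls, in the authors' deposited table. SHFL overlaps exons of ANGPTL6 and of an antisense gene on the opposite strand.

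Apolipoprotein L genes lie in 1 cluster on chromosome 22 and are close paralogs, so reads may be split between them. APOL2 (36226203 to 36239954) stood at approximately 6.13 CPM in FLAG-TASOR2 cells against 13.6 CPM in controls, or -1.15 ± 0.41 on the log2 scale of the authors' deposited table. APOL1, which encodes the trypanosome-killing factor of human serum (36253010 to 36267530), was listed only for knockout cells expressing FLAG-TASOR. It stood at approximately 3.25 CPM in those cells against 15.5 CPM in controls, or -2.25 ± 0.54 on the log2 scale of the authors' deposited table, with an approximate 95% interval of -3.61 to -0.89. APOL6 was not listed.

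GBP2, an interferon-induced GTPase of the guanylate-binding family (chromosome 1, 89106132 to 89150456), was listed only in the knockout. The level was approximately 1.26 CPM in TASOR KO cells against 5.36 CPM in controls, or -2.08 ± 0.62 on the log2 scale of the authors' deposited table, with an approximate 95% interval of -3.65 to -0.52. GBP2 shares exon positions with its paralog GBP7, and GBP1, GBP3, GBP4 and GBP5 were not listed. EPSTI1, an interferon-response gene first described in epithelial and stromal co-culture (chromosome 13, 42886388 to 42992271), was the single member listed as higher with FLAG-TASOR in the knockout. It stood at approximately 5.50 CPM in those cells against 1.08 CPM in controls, or 2.35 ± 0.83 on the log2 scale of the authors' deposited table, with an approximate 95% interval of 0.24 to 4.45.

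**Figure D3:**
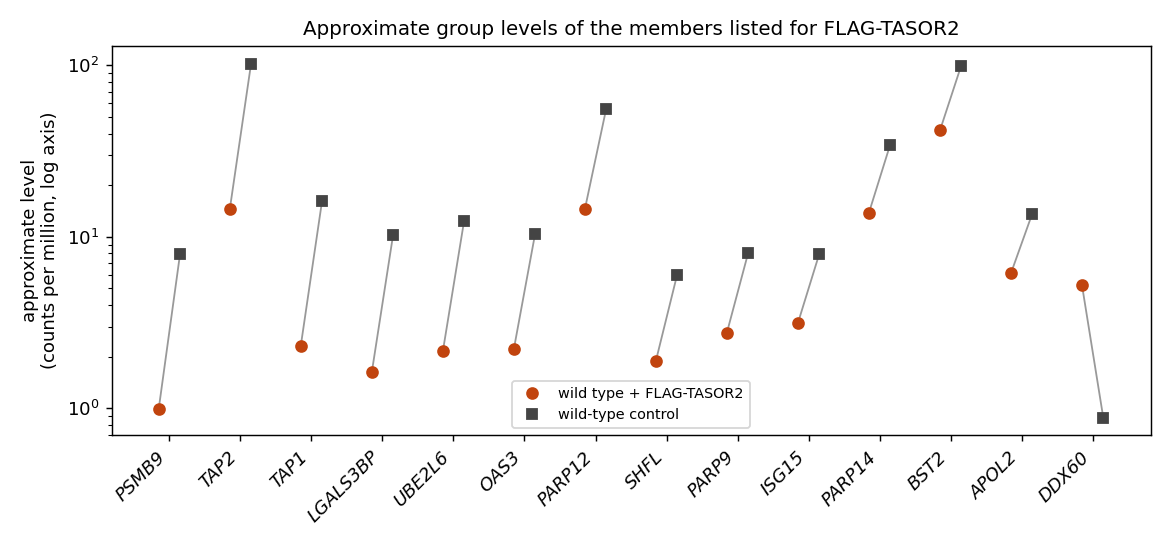
Approximate levels in CPM (log axis) of the 14 members listed for FLAG-TASOR2, ordered by log2 fold change; circles are FLAG-TASOR2 cells and squares the wild-type controls, each a group level derived from the deposited table with no value per library. Levels are not corrected for gene length. DDX60 is the single gene whose circle lies above its square.

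For 6 of the 14 members listed with FLAG-TASOR2, the whole approximate 95% interval lay below a log2 fold change of -1, as it did for 130 of all 884 listed genes, or 24.7% of the 526 lower ones. These were TAP2, PARP12, LGALS3BP, TAP1, UBE2L6 and OAS3. The approximate SE of the 14 ran between 0.21 and 0.99, against a median of 0.54 over all listed genes of that table. With members within 1 Mb counted once, the 14 genes form 11 loci, 10 of them lower. Both genes listed in 2 tables, TAP1 and OAS3, were lower in each, against the same controls. Those tables have 100 listed genes in common, and how many of these share a direction was not counted.

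The remaining 41 members were listed in no comparison. They include STAT2, IRF1, IRF7 and IRF9, transcription factors that carry or amplify the interferon signal, and SP100, a protein of nuclear bodies. All 7 IFIT and IFITM genes, which bind foreign RNA or block virus entry, were also among them, as IFIT1, IFIT2, IFIT3, IFIT5, IFITM1, IFITM2 and IFITM3. The other unlisted effectors were ISG20, IFI6, IFI27, IFI35, IFI44, IFI44L, MX1, MX2, XAF1, SAMD9, SAMD9L, RSAD2, CMPK2 and TRIM22. These genes have no value in the tables and may have missed any of the 3 listing thresholds, or may not have been among the genes tested.

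Other genes of the pathway were taken from 6 lists of 150 genes that share no gene with the members. The lists were also chosen with earlier results of these data known, so their counts are not independent support. With FLAG-TASOR2, 9 of the 150 (6%) were listed as lower and 0 as higher. Over all genes tested, 3.76% were listed as lower and 2.56% as higher. None of the listed genes passed an adjusted p of 0.05 in the authors' deposited table (0 of 150). Class I presentation gave 2 of 20, both lower. TAPBP, which links class I molecules to the transporter, had -1.01 ± 0.21, and ERAP1, which trims peptides, had -1.06 ± 0.21, in the authors' deposited table. Nucleic acid sensing gave 3 of 19, all lower. STING1, the adaptor of cytosolic DNA sensing, had -1.25 ± 0.20, the ubiquitin ligase TRIM25 had -1.20 ± 0.21 and the RNA-activated kinase EIF2AK2 had -1.07 ± 0.25 in the authors' deposited table.

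Other interferon-stimulated effectors gave 4 of 58 with FLAG-TASOR2, all lower. HELZ2 had -1.63 ± 0.44, the necroptosis protein MLKL had -1.55 ± 0.45, the nucleotide hydrolase SAMHD1 had -1.26 ± 0.41 and the cytidine deaminase APOBEC3F had -1.28 ± 0.51 in the authors' deposited table. No gene of the lists of 22 receptors and signalling genes, 13 interferons or 18 class II presentation genes was listed in any comparison. In the knockout, 0 of the 150 genes were listed. With FLAG-TASOR, 1 was listed, SLFN5 at 2.08 ± 0.71 in the authors' deposited table.

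**Figure D4:**
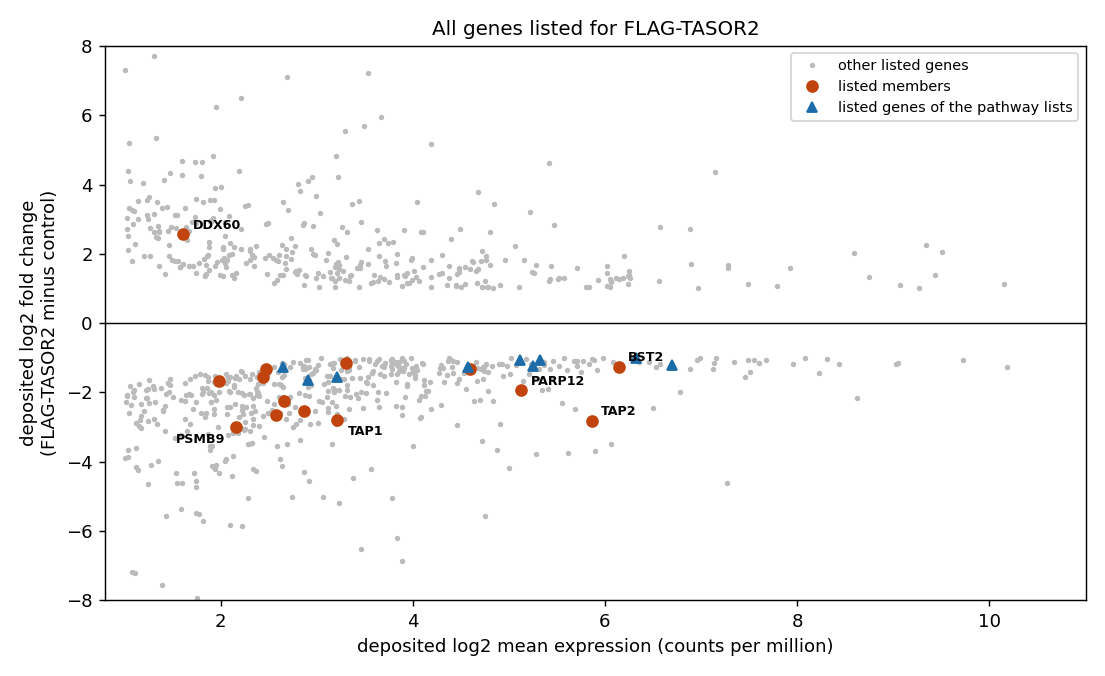
All 884 genes listed for FLAG-TASOR2, with deposited log2 mean expression (CPM) on the horizontal axis and deposited log2 fold change (FLAG-TASOR2 minus control) on the vertical axis; 15 genes fall outside the axes. Large circles are the 14 listed members, triangles the 9 listed genes of the pathway lists; all 9 triangles and 13 of the circles lie below zero.

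Several other groups of genes were listed in the same FLAG-TASOR2 comparison, and their part in the member values was not tested. Mitochondrially encoded RNAs gave 11 higher and 0 lower. The ribosomal RNAs MT-RNR1 and MT-RNR2 stood at 5.90 and 5.60 (log2 fold change), with adjusted p of 0.366 and 0.349 by the authors' deposited F-test. The others ran from MT-ND1 at 1.09 to MT-ND3 at 2.01, with MT-CO2 at 1.46, in the authors' deposited table. Of 20 erythroid markers 5 were listed as higher and none as lower, and of 9 megakaryocyte markers 2 were higher. Of 9 myeloid markers, MS4A3 was higher at 2.24, and ITGAM and CLC were lower at -4.62 and -4.33 (log2 fold change), in the authors' deposited table. The labels call K-562 a lymphoblast. Of 8 genes grouped here as lymphoid, only PTPRC has a value in the tables. It was listed as higher in the knockout, at 1.70 ± 0.65 (log2 fold change) in the authors' deposited table. Its adjusted p by the authors' deposited F-test was 0.9997, so no change was called. PTPRC alone does not mark cells as lymphoid, and lymphoid identity was not tested. Controls held the alpha-globin gene HBA1 at approximately 718 CPM. In the knockout, the 3 listed members stood beside the same 3 myeloid genes, all lower (3 of 9), and 0 erythroid genes. Of all genes tested there, 0.936% were listed as lower. With FLAG-TASOR, these 3 myeloid genes were again lower and 1 of 20 erythroid genes, HBE1, was higher. At most 1.26% of all genes tested were listed as lower in that comparison and 0.609% as higher.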

How the data were processed

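The 8 K-562 libraries, in 4 groups, were made from total RNA after ribosomal RNA depletion. Per the submitters' processing notes, hg38, edgeR, DESeq2, Salmon and STAR 2.7.8 were named, in roles not given. The authors deposited 1 table per comparison that holds, per the file headers, the p-value and its adjusted value, the F score, and the mean expression and fold change in log2 units. The tables leave the depth of each library unknown. No model was refitted. SEs were taken as the absolute log2 fold change over the square root of F, and intervals used the degrees of freedom (5.36, 5.34 and 6.01) that turn F into the deposited p-value. These degrees of freedom exceed what 4 libraries give 1 gene, so the deposited test drew on more than a gene's own 4 libraries. Group levels assume that the deposited mean is the arithmetic mean of both groups. The number of genes tested came from the top gene's adjusted p divided by its p or, for FLAG-TASOR, from the largest row number in identifier order. The code recovered known degrees of freedom, SEs and control levels from data simulated with the same formulas. That checks the arithmetic and not the assumptions, and the number of genes tested was not checked in this way. Python 3.11.15, pandas 2.3.3 and scipy 1.17.1 were used, with gene positions from GENCODE 29 (GRCh38, the assembly of hg38) matched by Ensembl identifier.

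Every listed member was named, with up to 3 listed genes of each pathway list by smallest p; APOBEC3F and the mitochondrial genes were named after their values were seen. Members and lists were chosen with earlier results of these data known, and no list was tested. Alternatives covered the adjusted p, the listing thresholds, counting by locus, matching by identifier, the SE, the level formula and the promoter window.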

Additional observations from a re-analysis of the deposited data

How the results depend on the processing

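No paired analysis was possible because the tables hold no values per library, and for the same reason fits without each library in turn were not run. The number of members past the adjusted p for FLAG-TASOR2 depended on the threshold, with 0 below 0.05, 1 below 0.1, 7 below 0.2 and 8 below 0.3, of which 7 were lower, while all genes gave 5, 8, 210 and 561. It was 0 at each threshold for the other 2 comparisons. An unadjusted p below 0.01 left 7 of the 14 listed members with FLAG-TASOR2, all lower, 0 of 3 in the knockout and 1 of 3 with FLAG-TASOR, against 43.8%, 34.7% and 24.1% of all listed genes in those tables. A log2 mean expression above 3 left 6 of 14 with FLAG-TASOR2, 2 of 3 in the knockout and 1 of 3 with FLAG-TASOR. Of all listed genes in those tables it left 51.0%, 42.5% and 44.4%. Fewer genes pass stricter thresholds by construction. A log2 fold change above 1.5, a mean expression above 2, counting by locus and matching by identifier kept each count of listed members within 1.5 times, but a log2 fold change above 1.5 left 1 of the 2 members lower with FLAG-TASOR. SEs from the deposited p were the same as from F. Taking the deposited mean as a mean of log2 levels moved 4 of 20 approximate control levels by more than 1 SE, TAP2 to 155 CPM, PARP12 to 68.7 CPM, LGALS3BP to 14.9 CPM and TAP1 (FLAG-TASOR2) to 24.5 CPM. In fold terms PSMB9 moved most, by 1.59-fold to 12.6 CPM, within its wide SE. Over the 100 genes listed for the knockout and FLAG-TASOR2, that formula left a median difference of 1.24-fold between control levels, against 1.10-fold.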

Other observations

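Genes outside the set that were listed with FLAG-TASOR2 held the ISRE letters in the window of 250 bases before to 50 after the start at 4.10% of 366 lower genes with a RefSeq window and 5.42% of 203 higher ones, against 4.38% of all genes. Before the start alone the shares were 2.19% of the lower and 4.93% of the higher genes, against 3.71% of all genes, so the share of the lower genes depended on the window. For the GAS letters in the whole window the shares were 6.28% of the lower and 15.3% of the higher genes, against 9.38% of all genes. The 8 lower genes outside the set with ISRE letters before the start were PAGE2B, ARHGEF6, OGFR, ACTL8, UTP14A, TAPBP, RARG and XACT. PAGE2B stood at -6.51 ± 0.69, ARHGEF6 at -2.30 ± 0.31 and OGFR at -1.97 ± 0.29 in the authors' deposited table. The 10 higher genes with such letters included TDRD6 at 6.51 ± 0.90 and TASOR2. The table does not separate the TASOR2 transgene from the cells' own TASOR2 RNA. These genes were chosen after their values were seen.

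Within 1 Mb of the members listed with FLAG-TASOR2, 10 genes outside the set were listed in the same comparison, 7 lower and 3 higher. Among all 884 genes listed there, 59.5% were lower. Around the antigen-processing locus on chromosome 6, the other listed genes within 1 Mb were also lower with FLAG-TASOR2. They were TAPBP and C4B, a complement component with a near-identical copy that can share its reads, at -3.18 ± 0.94 in the authors' deposited table. Near UBE2L6 on chromosome 11, the eosinophil granule gene PRG2 stood at -2.70 ± 0.43 in the authors' deposited table. A listed gene without a symbol starts close to PRG2 and stood at -2.92 ± 0.31. Both were counted among the lower genes, although they lie at nearly the same position. Near APOL2 on chromosome 22, the cytokine receptor subunit CSF2RB stood at -3.50 ± 0.72 in the authors' deposited table. The 3 higher neighbours were MYLK near PARP14 at 1.88 ± 0.58, and CDK11B at 1.23 ± 0.29 and MTATP6P1 at 1.59 ± 0.44 near ISG15 (log2 fold change), in the authors' deposited table. The symbol MTATP6P1 is built on that of the mitochondrially encoded MT-ATP6, which was listed as higher at 1.43 in the same comparison. Whether MTATP6P1 shares its reads was not tested. The neighbours named here were also chosen after their values were seen. DDX60, LGALS3BP, OAS3 and SHFL had 0 other listed genes within 1 Mb in that comparison.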
